A study of Mus musculus with 6 samples.

Results

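The SLC25 family holds the carriers that move small molecules across the inner membrane of the mitochondrion, and the uncoupling proteins belong to it. Members were taken by symbol: every gene named Slc25a followed by a number, without Slc25a15 and Slc25a20, plus Ucp1, Ucp2 and Ucp3. This gave 48 of the 34866 genes in the table. They were read in livers of 8-week-old male C57BL/6 mice, in 3 libraries from mice given vehicle and 3 from mice given iD1. iD1 is a code name, and the labels give neither a dose, a time nor a target for it. It was injected into the abdominal cavity. The vehicle mice are marked as untreated in 1 label field and as vehicle in their titles. All mice had free access to food and water on a 12-hr light-dark cycle, per the labels. Whether each library is a separate animal is not stated, and p-values therefore cover only the spread among these libraries, which may be technical.

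The inner membrane is closed to most metabolites, and each SLC25 carrier opens it to a particular group of substrates, usually by exchange. Carriers bring ADP and phosphate to the ATP synthase, move citrate, malate, aspartate and glutamate between matrix and cytosol, and supply the matrix with nucleotides, coenzymes and iron. In liver they join the mitochondrial and cytosolic steps of glucose synthesis, the urea cycle, lipid synthesis and heme synthesis.

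Libraries held 23515571 to 37613549 estimated counts. Hepatocyte transcripts dominated, and Alb, the albumin gene, lay between 53694 and 74274 CPM in every library. CPM is the count scaled to a common library size. The share of mitochondrially encoded transcripts was 12.2% ± 1.49 for vehicle and 9.44% ± 0.802 for iD1 (SD, n = 3), and the groups did not overlap. With these genes left out of counts and scaling, the same numbers of carrier genes were called as with them. The vehicle column whose number no sample title has is called the unnumbered vehicle replicate. CPM values below were scaled to library sizes by TMM (trimmed mean of M-values), in the order replicate 1, replicate 2 and unnumbered replicate for vehicle and replicates 1, 2 and 3 for iD1.

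Of the 48 genes, 42 had enough counts to be tested. At an adjusted p under 0.05 (edgeR's quasi-likelihood test, p-values adjusted by the Benjamini-Hochberg method across the 13718 genes tested), 13 carriers were called higher with iD1 and 4 lower. That is 31.0% of the tested carriers higher, where the share over all tested genes was 8.42%, and 9.52% lower, where it was 8.3%. The family was chosen with earlier results of these data known, so these shares describe it and do not test it. The median log2 fold change was 0.30 for the tested carriers and 0.00063 for all tested genes. All 3 iD1 libraries lay above all 3 vehicle libraries in 19 tested carriers and below them in 5, which is 45.2% and 11.9%. Over all tested genes these shares were 18.5% and 18.7%. Of the 17 called carriers, 12 stayed called without any 1 library, 8 of them higher and 4 lower. With library size as the only scaling, the median of all genes moved to -0.20, 10 carriers were higher and 4 lower. Over all 13718 tested genes 597 were then higher and 1883 lower. Of the called genes 24.1% were thus higher, and of the called carriers 71.4%. Of the 42 tested genes, 40 were over the count filter in all 6 libraries. Slc25a35, 1 of the 4 called lower, was over it in 3 vehicle and 2 iD1 libraries. Its place among the tested genes thus rested on vehicle, the group where it was high. With a minimum count of 50 it was not tested, and 3 carriers were called lower. Slc25a43 was over the filter in 2 vehicle libraries and 1 iD1 library.

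**Figure D1:**
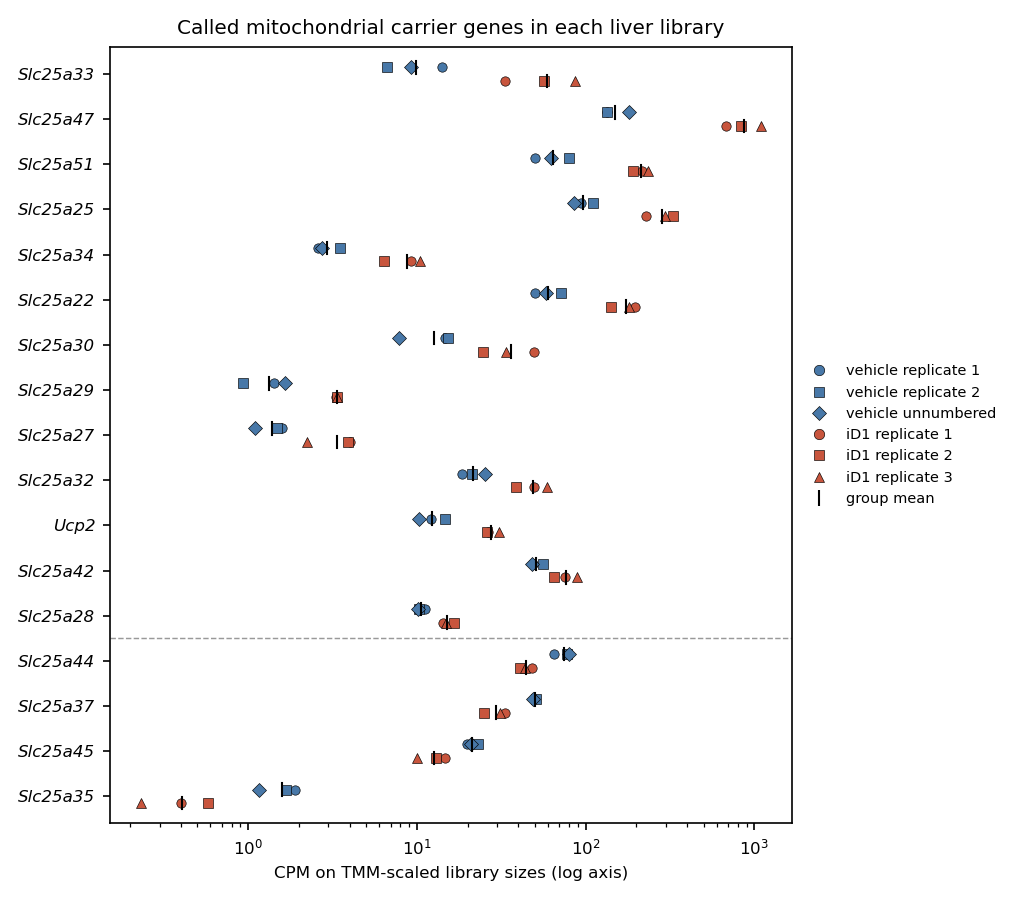
CPM (log axis) of the 17 called carrier genes in each library, with marks for the library and black bars for group means. The 13 genes above the dashed line were called higher with iD1 and the 4 below it lower, and in each of the 17 the groups do not overlap.

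**Figure D2:**
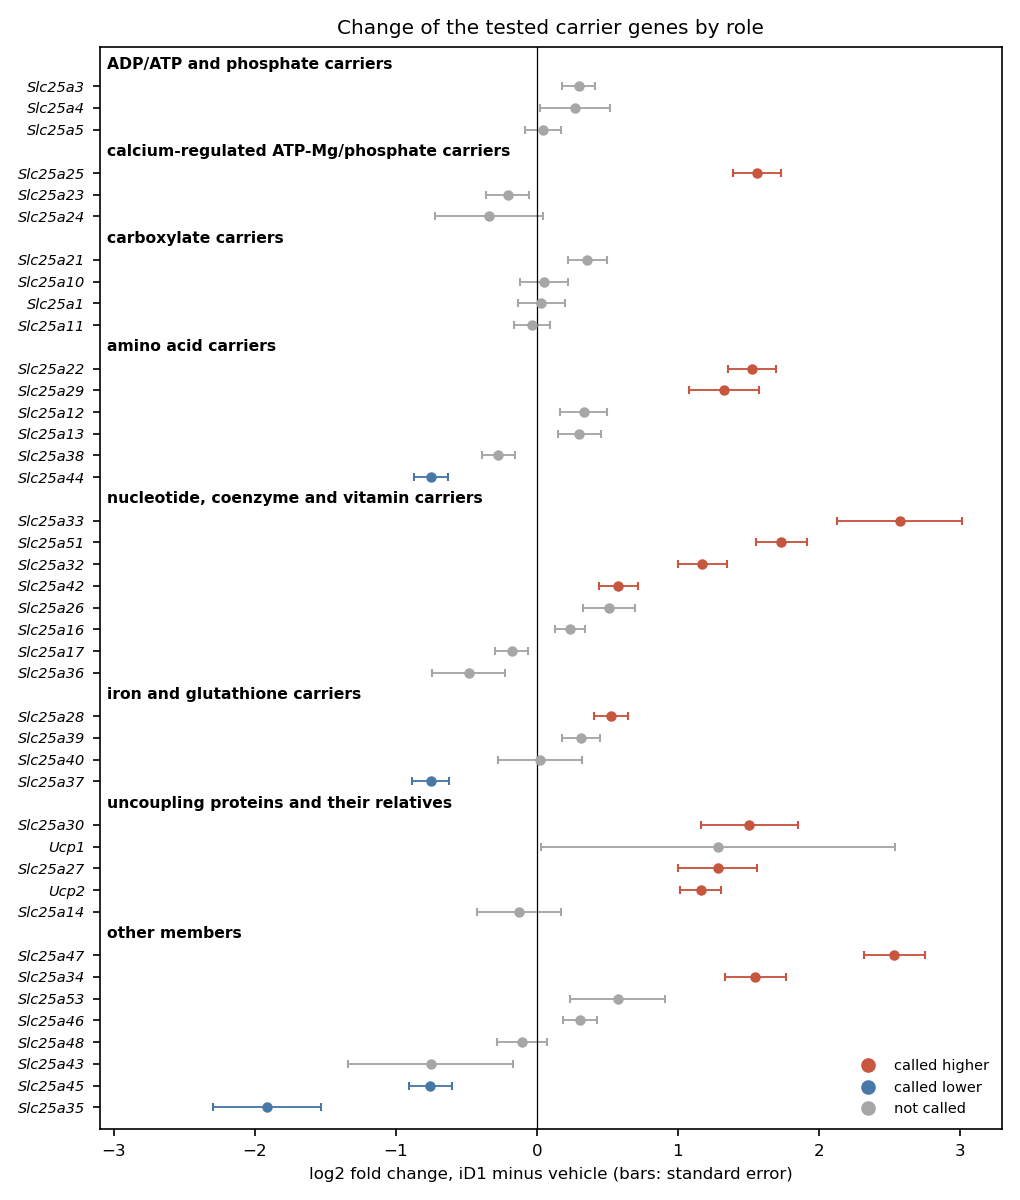
Log2 fold change of iD1 minus vehicle, with its standard error, for 41 of the 42 tested carrier genes, grouped by role. Called genes are spread over 6 of the 8 groups, and the ADP/ATP and phosphate carriers and the carboxylate carriers hold none.

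Slc25a47, a carrier found mainly in hepatocytes whose substrate is not settled, had the highest mean level per transcript length of the family in iD1 livers. In vehicle livers Slc25a5, Slc25a39 and Slc25a3 were above it, at 446, 211 and 163 TPM. Slc25a47 (ENSMUSG00000048856) lies on chromosome 12 from 108836046 to 108856815 on the plus strand. It measured 134.8, 134.7 and 179.8 CPM in vehicle and 679, 838 and 1090.2 CPM in iD1 livers. Every iD1 library was more than 3 times as high as every vehicle library. The log2 fold change was 2.54 (SE 0.21), a 5.80-fold rise with an adjusted p of 2.80e-04 in edgeR's test, the smallest among the carriers. TPM is the level on a common scale that also divides by transcript length, and it was not scaled by TMM. In TPM Slc25a47 went from 143 ± 14.8 to 731 ± 153 (SD, n = 3). Its share of the summed level of all 48 genes went from 8.43% ± 1.504 to 29.8% ± 4.60.

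The promoter of Slc25a47 is shown because the gene held the largest part of the family's rise in level, and that of Slc25a29, its divergent neighbour, because both were called higher. Slc25a29 carries basic amino acids. By GENCODE M21 on GRCm38 the genes are 162 bases apart and point away from each other. The annotated start of Slc25a47 nearest to Slc25a29 belongs to noncoding transcripts, and the RefSeq starts of the pair are 15252 bases apart. Both windows are the 250 bases upstream of a RefSeq start (build GRCm38.p6). The window of Slc25a47 is chr12:108850879-108851128 on the plus strand and that of Slc25a29 is chr12:108835877-108836126 on the minus strand. Capitals mark the matches to the motifs listed at the end of the account of promoters, which here are CCAAT boxes (CCAAT or its reverse complement) and GC boxes (GGGCGG or its reverse complement).
Slc25a47: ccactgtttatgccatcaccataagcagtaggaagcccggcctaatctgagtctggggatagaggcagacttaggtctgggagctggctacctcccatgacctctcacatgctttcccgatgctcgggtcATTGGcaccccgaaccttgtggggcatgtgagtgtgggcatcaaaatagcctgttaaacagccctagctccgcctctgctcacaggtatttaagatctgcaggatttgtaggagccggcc
Slc25a29: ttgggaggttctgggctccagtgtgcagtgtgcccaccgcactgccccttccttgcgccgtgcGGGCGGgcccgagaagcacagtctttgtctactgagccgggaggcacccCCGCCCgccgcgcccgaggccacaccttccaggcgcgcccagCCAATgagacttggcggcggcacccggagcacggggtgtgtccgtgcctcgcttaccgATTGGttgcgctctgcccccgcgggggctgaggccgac
Slc25a29 measured 1.43, 0.940 and 1.65 CPM in vehicle and 3.31, 3.37 and 3.39 CPM in iD1 livers. The pair thus differed widely in level, and the 3 iD1 values of Slc25a29 lay close together. Its log2 fold change was 1.33 (SE 0.25), with edgeR's adjusted p = 0.00766.

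**Figure D3:**
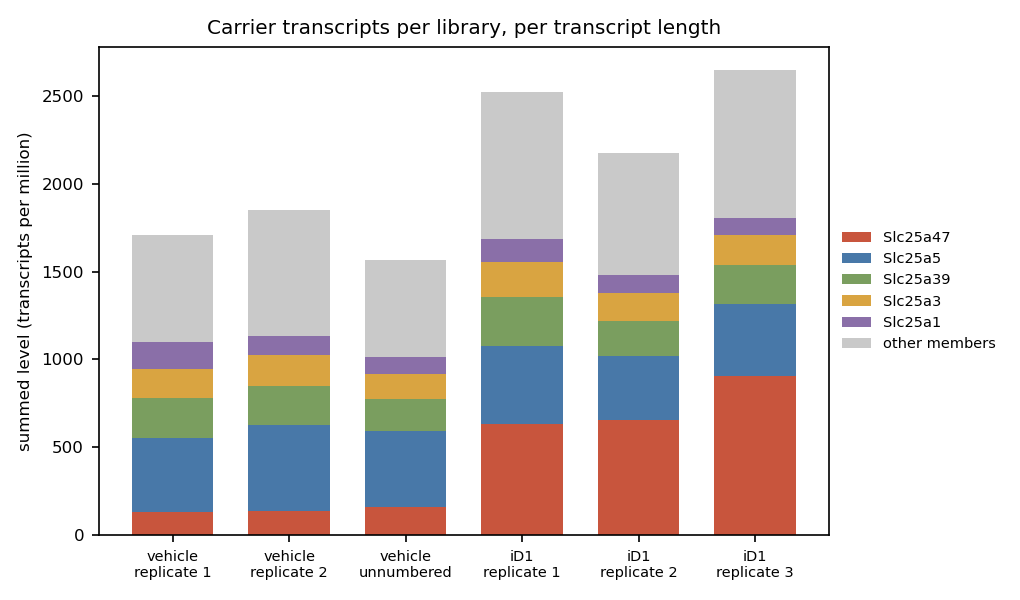
Summed level of all 48 carrier genes in each library (stacked bars, TPM computed per transcript length), with the 5 genes of highest mean level in colour. The bars reach 1566 to 1850 TPM in vehicle and 2177 to 2646 TPM in iD1 livers, and the Slc25a47 part is the one that differs most between the groups.

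None of the 3 tested carriers that feed the ATP synthase was called by edgeR, DESeq2 or limma-voom, and 1 had an unadjusted p under 0.05 (edgeR). Slc25a5, the main ADP/ATP carrier of most tissues, measured 341, 369 and 384 CPM in vehicle and 375, 368 and 386 CPM in iD1 livers. Its log2 fold change was 0.05 (SE 0.13), and the sign turned under other scalings (-0.03 by upper quartile, -0.15 by library size alone). Slc25a3, the phosphate carrier, measured 176, 175 and 167 CPM in vehicle and 218, 207 and 212 CPM in iD1 livers. Its groups did not overlap, and the difference, a log2 fold change of 0.30 (SE 0.12), had an adjusted p of 0.110 in edgeR's test. Slc25a4, the ADP/ATP carrier of heart and muscle, lay between 2.38 and 4.60 CPM. Slc25a31, an ADP/ATP carrier known from testis, had 0 to 3 counts per library and was not tested. The 5 testis markers had 0 counts in every library. Per transcript length Slc25a5 was at 446 ± 34.6 TPM in vehicle and 407 ± 40.0 TPM in iD1 livers, against 2.44 ± 0.235 and 2.56 ± 0.674 TPM for Slc25a4 (SD, n = 3).

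Of the carriers that exchange ATP-magnesium for phosphate under control of cytosolic calcium, Slc25a25 rose. Slc25a25 (ENSMUSG00000026819; chromosome 2, 32414487 to 32451445, minus strand) measured 93.9, 111 and 85.2 CPM in vehicle and 229, 328 and 297 CPM in iD1 livers. The groups were far apart, with a log2 fold change of 1.56 (SE 0.17), 2.95-fold, and edgeR's adjusted p = 6.99e-04. Its exons share 379 bases with Naif1, transcribed from the other strand (log2 fold change -0.30), and the sources used here do not say whether counting used strand. Slc25a23 measured 149, 213 and 162 CPM in vehicle and 158, 155 and 143 CPM in iD1 livers, and these values overlapped (log2 fold change -0.21, SE 0.15). Slc25a24 stayed at or under 1.10 CPM in each library and was not called. Slc25a41 had no count, and 3 counts over all 6 libraries would be 0.0166 CPM. Within each library the level of Slc25a25 relative to Slc25a23, per transcript length, was 0.532 to 0.643 in vehicle and 1.49 to 2.17 in iD1 livers. This ratio needs no scaling between libraries. An exact two-sided permutation test over the libraries gave p = 0.1, the smallest that 3 against 3 allows, and an adjusted p of 0.2 over the 6 pairs of related carriers compared in this way.

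Slc25a25 has 3 RefSeq starts with a window. That of the start farthest downstream is shown, chr2:32424067-32424316 on the minus strand of GRCm38.p6. In it the capitals mark, from left to right, a cyclic AMP response element (TGACGTCA), a CCAAT box and a GC box.
Slc25a25: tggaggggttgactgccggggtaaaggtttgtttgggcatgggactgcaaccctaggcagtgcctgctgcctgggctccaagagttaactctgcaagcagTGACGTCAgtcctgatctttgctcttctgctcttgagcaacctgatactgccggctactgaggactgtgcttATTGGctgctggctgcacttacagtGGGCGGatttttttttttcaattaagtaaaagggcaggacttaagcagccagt
Of the 3 windows only this one holds the cyclic AMP response element, which starts 150 bases before the annotated start. The counts are summed over the gene, so they do not show which start was used.

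None of the 4 carboxylate carriers, which join the citric acid cycle to the cytosol, was called by edgeR, DESeq2 or limma-voom, and 1 had an unadjusted p under 0.05 (edgeR). Slc25a1, the citrate carrier that supplies cytosolic acetyl-CoA for lipid synthesis, measured 166, 112 and 116 CPM in vehicle and 146, 136 and 121 CPM in iD1 livers. The groups overlapped fully, and the log2 fold change of 0.03 (SE 0.17) changed sign under other scalings. Slc25a10, the dicarboxylate carrier, showed 0.05 on the log2 scale (SE 0.17), and Slc25a11, which exchanges oxoglutarate for malate, had -0.03 (SE 0.13). For Slc25a21, the oxodicarboxylate carrier, the groups did not overlap, at 5.39 to 6.07 CPM in vehicle and 7.06 to 7.60 CPM in iD1 livers. The log2 fold change was 0.36 (SE 0.14) and edgeR's adjusted p was 0.107.

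Among amino acid carriers, Slc25a22 and Slc25a29 rose and Slc25a44 fell. Slc25a22 (ENSMUSG00000019082; chromosome 7, 141429744 to 141437892, minus strand) imports glutamate with a proton. It measured 50.5, 71.4 and 58.1 CPM in vehicle and 197, 141 and 180.3 CPM in iD1 livers. All iD1 libraries lay well above all vehicle libraries, and the log2 fold change was 1.53 (SE 0.17), 2.88-fold, with edgeR's adjusted p = 7.73e-04. Its relative Slc25a18 had 2 to 7 counts per library and was not tested. Slc25a44, which carries branched-chain amino acids, measured 65.5, 77.5 and 80.0 CPM in vehicle and 47.9, 41.0 and 43.8 CPM in iD1 livers. It fell by 0.75 on the log2 scale (SE 0.12), with edgeR's adjusted p = 0.00430.

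The aspartate/glutamate carriers of the malate-aspartate shuttle were not called. Slc25a13, the form known from liver, measured 156, 191 and 178 CPM in vehicle and 188, 206 and 254 CPM in iD1 livers. Slc25a12 measured 9.81, 12.5 and 14.7 CPM in vehicle and 13.6, 15.8 and 17.2 CPM in iD1 livers. In both genes the highest vehicle value exceeded the lowest iD1 value, and their log2 fold changes were 0.30 (SE 0.15) and 0.33 (SE 0.16). Per transcript length Slc25a12 stood at 0.0308 to 0.0406 of Slc25a13 over the 6 libraries. Slc25a38, the glycine carrier that serves heme synthesis, showed -0.27 on the log2 scale (SE 0.12, edgeR's adjusted p = 0.152), with groups that did not overlap. Slc25a2 had 1 to 11 counts per library and was not tested.

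Of 9 carriers of nucleotides, coenzymes and vitamins, 4 rose and 5 were not called in edgeR's test. None was called lower by edgeR, DESeq2 or limma-voom, and 0 of the differences below zero had an unadjusted p under 0.05. Slc25a33 (ENSMUSG00000028982; chromosome 4, 149744036 to 149774277, minus strand) carries pyrimidine nucleotides used to make mitochondrial DNA and RNA. It measured 14.0, 6.63 and 9.22 CPM in vehicle and 33.2, 57.1 and 86.9 CPM in iD1 livers. The iD1 libraries differed among themselves by more than 2-fold, and all lay above vehicle. The log2 fold change was 2.57 (SE 0.44), 5.95-fold, with edgeR's adjusted p = 0.0154. The call was lost when iD1 replicate 2 or the unnumbered vehicle replicate was dropped (adjusted p up to 0.0652), and also without the count filter. Its exons share 281 bases with Gm13068 on the other strand. Slc25a36, the other pyrimidine nucleotide carrier, stood at -0.48 on the log2 scale (SE 0.26), and its groups overlapped. Per transcript length the level of Slc25a33 relative to Slc25a36 was 5.601 to 16.0 in vehicle and 34.6 to 110.3 in iD1 livers (exact permutation p = 0.1, adjusted p = 0.2 over the 6 pairs).

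The window before the RefSeq start of Slc25a33 is chr4:149774268-149774517 on the minus strand of GRCm38.p6, shown because this gene and Slc25a47 had the largest log2 fold changes of the family. Which of the pair was ahead depended on the libraries: without iD1 replicate 3, for instance, the values were 2.20 for Slc25a33 and 2.34 for Slc25a47. Capitals mark, from left to right, a GC box on the other strand, a CCAAT box and an E-box (CACGTG).
Slc25a33: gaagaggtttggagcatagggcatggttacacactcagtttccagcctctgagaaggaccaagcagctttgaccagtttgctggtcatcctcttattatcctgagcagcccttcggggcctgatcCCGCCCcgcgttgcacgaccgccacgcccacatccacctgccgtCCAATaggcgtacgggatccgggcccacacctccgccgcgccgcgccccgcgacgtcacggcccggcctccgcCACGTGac
The E-box starts 8 bases before the annotated start.

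Slc25a51 (ENSMUSG00000045973; chromosome 4, 45395923 to 45408766, minus strand) brings NAD into the matrix. It measured 49.996, 80.2 and 62.4 CPM in vehicle and 217, 191 and 234 CPM in iD1 livers. The groups were well apart, at 1.74 on the log2 scale (SE 0.18), 3.33-fold, and edgeR's adjusted p = 5.52e-04. Its exons share 125 bases with Gm25692 on the same strand, where strand in the counting would not separate their reads. Slc25a32, linked to the supply of folate and FAD, measured 18.4, 21.4 and 25.3 CPM in vehicle and 49.4, 38.9 and 58.9 CPM in iD1 livers, a log2 fold change of 1.18 (SE 0.17). Its adjusted p in edgeR's test was 0.00265. Slc25a42, a coenzyme A carrier, measured 48.7, 56.1 and 48.5 CPM in vehicle and 75.2, 65.1 and 88.8 CPM in iD1 livers. This smaller rise, a log2 fold change of 0.58 (SE 0.14), had an adjusted p of 0.0205 by edgeR and lost its call without vehicle replicate 1 or the unnumbered one, without iD1 replicate 3 (adjusted p up to 0.0863) and with library size as the only scaling.

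Slc25a26, which carries S-adenosylmethionine, measured 4.19, 3.04 and 4.17 CPM in vehicle and 5.40, 4.89 and 5.94 CPM in iD1 livers. The groups did not overlap, and the log2 fold change of 0.51 (SE 0.19) had an adjusted p of 0.0914 in edgeR's test. Slc25a16 and Slc25a17, a carrier of peroxisomes, had log2 fold changes of 0.23 (SE 0.11) and -0.18 (SE 0.12), and neither was called.

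The mitoferrins, which bring iron to the matrix, moved in opposite directions. Slc25a37 (mitoferrin 1, known from red cell precursors) measured 50.1, 51.1 and 48.8 CPM in vehicle and 33.1, 24.9 and 31.0 CPM in iD1 livers. It fell by 0.75 on the log2 scale (SE 0.13), with edgeR's adjusted p = 0.00519. Its exons share 381 bases with Gm31748 and 92 with Gm27223 on the other strand. Slc25a28 (mitoferrin 2) measured 11.2, 10.3 and 10.2 CPM in vehicle and 14.2, 16.6 and 14.9 CPM in iD1 livers. It rose by 0.53 on the log2 scale (SE 0.12), with edgeR's adjusted p = 0.0175, a call lost without vehicle replicate 2 or the unnumbered one, without iD1 replicate 2 (adjusted p up to 0.0735) and with library size as the only scaling. Within each library the level of Slc25a28 relative to Slc25a37, per transcript length, was 0.546 to 0.611 in vehicle and 1.17 to 1.81 in iD1 livers. By this measure Slc25a37 was the higher form in every vehicle library and Slc25a28 in every iD1 library. The exact permutation test gave p = 0.1, with an adjusted p of 0.2 over the 6 pairs. In CPM, which does not divide by length, Slc25a37 was above Slc25a28 in every library. Which form is higher in iD1 livers thus depends on the transcript lengths used, 4174 bases for Slc25a37 and 1535 for Slc25a28. Which transcripts were present was not measured.

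The glutathione carriers were not called. Slc25a39 measured 253, 232 and 216 CPM in vehicle and 318, 275 and 279.6 CPM in iD1 livers. These values did not overlap, and the log2 fold change of 0.32 (SE 0.13) had an adjusted p of 0.139 by edgeR. Slc25a40 lay between 2.07 and 4.27 CPM, with a log2 fold change of 0.02 (SE 0.30).

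Among the uncoupling proteins and their relatives, Ucp2, Slc25a27 and Slc25a30 rose. Ucp2, the form known from many tissues and from macrophages, measured 12.1, 14.7 and 10.4 CPM in vehicle and 26.4, 26.2 and 30.6 CPM in iD1 livers. The groups did not overlap, at 1.16 on the log2 scale (SE 0.15), with edgeR's adjusted p = 0.00127. The markers of Kupffer cells, the liver's macrophages, summed to 81.8 to 137 CPM in vehicle and 79.2 to 109.96 CPM in iD1 livers, and 0 of 5 were called by edgeR. Of these 5, 2 had an unadjusted p under 0.05, 1 higher and 1 lower, and DESeq2 called 1 higher. Marco had a log2 fold change of 0.76, and Clec4f, Vsig4, Cd5l and Adgre1 were below zero, from -0.59 to -0.24. The neutrophil markers summed to 1.16 to 1.32 CPM in vehicle and 3.51 to 11.2 CPM in iD1 livers, with 3 of 5 higher. Ly6g, a defining neutrophil gene, had 0, 2 and 0 counts in vehicle and 0 in each iD1 library, too few to show a difference. All 4 tested markers had an unadjusted p under 0.05 and were higher with iD1. The part of such cells in the Ucp2 result was not tested. In bulk samples fewer cells of a type and less RNA per cell cannot be told apart.

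Slc25a30 measured 14.7, 15.4 and 7.87 CPM in vehicle and 49.8, 24.6 and 33.8 CPM in iD1 livers. It rose by 1.51 on the log2 scale (SE 0.34), with edgeR's adjusted p = 0.0310, and was not called without vehicle replicate 1, vehicle replicate 2 or iD1 replicate 3 (adjusted p up to 0.0860), with library size only or without the count filter. Slc25a27, known from brain, was low, at 1.60, 1.49 and 1.10 CPM in vehicle and 4.03, 3.92 and 2.23 CPM in iD1 livers. It rose by 1.28 on the log2 scale (SE 0.28), with edgeR's adjusted p = 0.0144, and it was no longer called once the unnumbered vehicle replicate was left out (adjusted p = 0.0626). Slc25a14 lay between 0.743 and 1.23 CPM and was not called.

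Ucp1, the heat-making protein of brown fat, was set apart by 1 library. It measured 1.46, 3.66 and 2.60 CPM in vehicle and 0.846, 16.6 and 1.25 CPM in iD1 livers. In iD1 replicate 2 it was higher than anywhere else, while the other iD1 libraries were below every vehicle library. The log2 fold change was 1.29 (SE 1.26) with all libraries and -1.32 without iD1 replicate 2, and neither was called (edgeR's adjusted p = 0.550 and 0.0869). The 5 fat cell markers summed to 11.2 and 16.3 CPM in the other iD1 libraries, 41.1 CPM in iD1 replicate 2 and 11.5 to 22.2 CPM in vehicle. Fabp4, which other cells also express, made up 35.5 of the 41.1 CPM. Adipoq, the adiponectin gene, was under 1 CPM in each library, and 0 of the 4 tested markers were called by edgeR, DESeq2 or limma-voom or had an unadjusted p under 0.05. The part of fat tissue in the Ucp1 values was not tested. Ucp3 had 0 to 9 counts per library and was not tested.

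**Figure D4:**
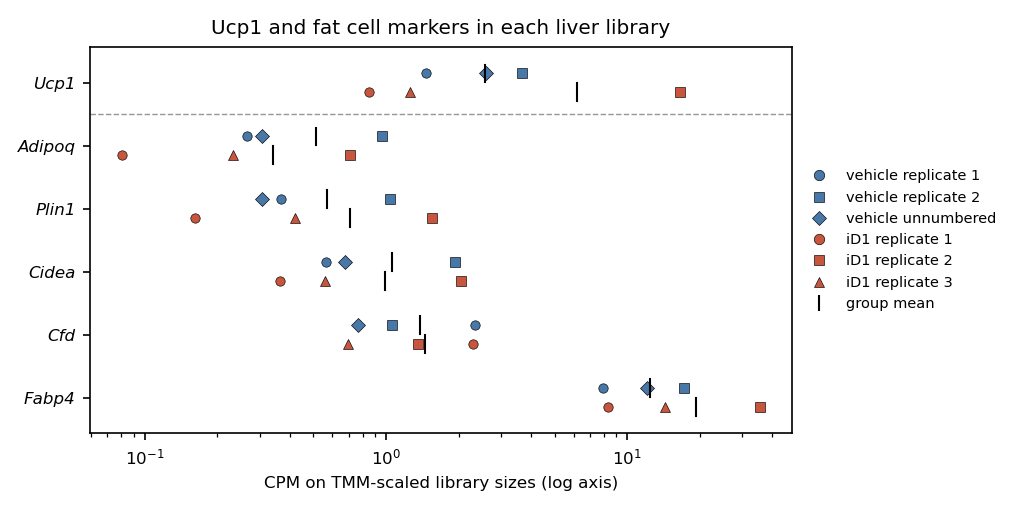
CPM (log axis) of Ucp1 and of 5 fat cell markers in each library, with marks for the library and black bars for group means. Ucp1 reaches 16.6 CPM in iD1 replicate 2 and stays at or under 3.66 CPM in the other libraries. Plin1, Cidea and Fabp4 are also highest in iD1 replicate 2, Cidea only narrowly (2.04 against 1.93 CPM in vehicle replicate 2). Adipoq is highest in vehicle replicate 2 and Cfd in vehicle replicate 1.

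Of the members whose substrate is not settled or not described here, Slc25a34 rose and Slc25a35 and Slc25a45 fell, beside Slc25a47. Slc25a34 measured 2.59, 3.49 and 2.76 CPM in vehicle and 9.27, 6.41 and 10.4 CPM in iD1 livers, a log2 fold change of 1.55 (SE 0.22) with edgeR's adjusted p = 0.00200. Slc25a35, its relative, had 57, 70 and 38 counts in vehicle and 10, 18 and 5 counts in iD1 livers, or 1.90, 1.69 and 1.16 CPM against 0.403, 0.582 and 0.232 CPM. It fell by 1.91 on the log2 scale (SE 0.38), with edgeR's adjusted p = 0.0101. Its exons share 1151 bases with Rangrf, transcribed from the other strand (log2 fold change -1.17, edgeR's adjusted p = 0.0810). Without strand in the counting, their reads could not be told apart. Slc25a45 measured 19.96, 23.0 and 21.1 CPM in vehicle and 14.8, 13.1 and 9.98 CPM in iD1 livers. It fell by 0.76 on the log2 scale (SE 0.15), with edgeR's adjusted p = 0.00997.

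Slc25a46, an outer membrane member that acts in mitochondrial shape, showed 0.31 on the log2 scale (SE 0.12), with groups that did not overlap. Slc25a43, Slc25a48 and Slc25a53 were not called and overlapped between the groups. Slc25a54 had no count. Over the 25 tested carriers without a call, log2 fold changes ran from -0.75 to 1.29 with standard errors of 0.11 to 1.26, and 6 had an unadjusted p under 0.05 in edgeR's test. For 21 of them the fold change was within 0.5 on the log2 scale.

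RefSeq windows of 250 bases upstream were found for 37 of the 48 genes, 46 windows in all, 14 of them from genes called higher. They were searched on both strands for the cyclic AMP response element TGACGTCA, the E-box CACGTG, the CCAAT box, the GC box GGGCGG, and the elements of PPAR (a direct repeat), the estrogen-related receptors, the glucocorticoid receptor, nuclear respiratory factor 1 and C/EBP. Overlap between motifs was not removed. The last 5 had no match in any of the 46 windows, and they are rare, from 0.0335% to 0.782% of all 32851 windows. TGACGTCA was in 1 of the 14 windows, that of Slc25a25, and in 1.55% of all windows. It was also in 1 of the 32 windows of the other carriers, that of Slc25a36, which was not called. CACGTG was in 1 of the 14, that of Slc25a33, and in 6.02% of all windows. CCAAT was in 11 of these 14 and in 10 of the 32 windows of the other carriers, and in 33.8% of all windows. GGGCGG was in 12 of the 14 and in 18 of the 32, and in 32.7% of all windows. Over the whole family the GC box was thus in 65.2% of the windows and the E-box in 15.2%, with 6 of its 7 windows in carriers not called higher. Several windows belong to the same gene, so windows are not independent of each other. Slc25a25 alone has 3, each with a CCAAT box, and Slc25a22 also has more than 1. Slc25a27, Slc25a32 and Slc25a51 were called higher and have no window among the 14. Among the other carriers Slc25a14 and Slc25a23 also have more than 1 window. A match is a run of letters and does not show binding.

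Genes that work beside the carriers were read from 8 lists of 72 symbols. Of these, 71 matched a gene with a row of counts, and 70 were tested. In edgeR's test 8 were called higher and 2 lower, with a median log2 fold change of 0.08. That is 11.4% higher and 2.86% lower, against 8.42% and 8.3% of all tested genes. These lists too were chosen with earlier results of these data known. The count higher was 4 without vehicle replicate 1, 3 without the unnumbered vehicle replicate and 3 without iD1 replicate 3. The count lower was 1 without vehicle replicate 2 or the unnumbered one, and 1 without iD1 replicate 2. With library size as the only scaling 4 were higher.

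Of the 6 shuttle enzymes, the cytosolic aspartate aminotransferase gene Got1 rose, from 56.5, 175 and 131 CPM to 483, 569 and 749 CPM, and edgeR called none of the other 5. Of these, Gpd2, the mitochondrial glycerol phosphate dehydrogenase, was called higher by DESeq2 (log2 fold change 0.53, adjusted p = 0.0358) and not by edgeR (adjusted p = 0.0607). It is named after its values were seen. For Got1 the log2 fold change was 2.31 (SE 0.42), with edgeR's adjusted p = 0.0142, and the call was lost when iD1 replicate 2 or 3 or the unnumbered vehicle replicate was left out (adjusted p up to 0.0566) and without the count filter. Of 7 tested calcium channel genes, Slc8b1, the sodium-calcium exchanger of the inner membrane, rose from 8.91, 13.6 and 12.5 CPM to 41.5, 54.1 and 63.9 CPM. The groups were far apart, at 2.18 on the log2 scale (SE 0.20), with edgeR's adjusted p = 4.68e-04, and the other 6 were not called. Of 10 citrate and pyruvate enzymes, Pcx, which makes oxaloacetate from pyruvate, rose by 0.68 on the log2 scale (SE 0.15). Me3, a mitochondrial malic enzyme, rose by 1.03 (SE 0.28). Their adjusted p in edgeR's test was 0.0135 and 0.0436. The call of Pcx was lost without the unnumbered vehicle replicate, and that of Me3 without vehicle replicate 1 or the unnumbered one, or without iD1 replicate 1 or 3 (adjusted p up to 0.137). With library size only, upper-quartile factors or no filter Me3 was not called either. Acly, which makes cytosolic acetyl-CoA from citrate and is named after its values were seen, had the list's largest difference. It measured 471, 344 and 298 CPM in vehicle and 247, 106 and 83.7 CPM in iD1 livers, without overlap. Its log2 fold change of -1.35 (SE 0.44) was not called by edgeR (adjusted p = 0.0884) and was called lower by limma-voom (-1.49, adjusted p = 0.0294).

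Of 9 inner membrane carriers outside the family, the sideroflexin gene Sfxn5 fell by 0.85 on the log2 scale (SE 0.14), with edgeR's adjusted p = 0.00405, and 8 were not called. Of 12 genes that import carrier proteins, Tomm20 rose by 0.45 (SE 0.13, adjusted p = 0.0383 by edgeR), a call lost without vehicle replicate 1 or 2, without iD1 replicate 2 or 3, and under both other scalings. None of the 15 tested ATP synthase subunits was called by edgeR, DESeq2 or limma-voom, and 1 had an unadjusted p under 0.05. That was Atp5d, with a log2 fold change of 0.27 (SE 0.11). None of the 3 outer membrane channels was called by these tools or had an unadjusted p under 0.05, and Vdac2 had 0.22 (SE 0.12). Of 8 regulators of mitochondrial genes, the coactivator genes Pprc1 and Ppargc1a and the receptor gene Ppara rose, with log2 fold changes of 0.64 (SE 0.12), 1.41 (SE 0.32) and 0.63 (SE 0.16). Ppargc1a measured 6.05, 7.52 and 7.26 CPM in vehicle and 9.79, 22.2 and 23.5 CPM in iD1 livers. Their adjusted p in edgeR's test was 0.00851, 0.0262 and 0.0299. Ppargc1a was not called without any 1 of the vehicle libraries, iD1 replicate 2 or iD1 replicate 3, and Ppara without any 1 of the vehicle libraries, iD1 replicate 1 or iD1 replicate 3. With library size only neither Pprc1 nor Ppara was called, and without the count filter Ppargc1a was not. Esrra, named after its values were seen, fell by 0.49 on the log2 scale (SE 0.13, adjusted p = 0.0313 by edgeR), and was not called when vehicle replicate 2 or the unnumbered one, or iD1 replicate 1 or 2, was left out.

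**Figure D5:**
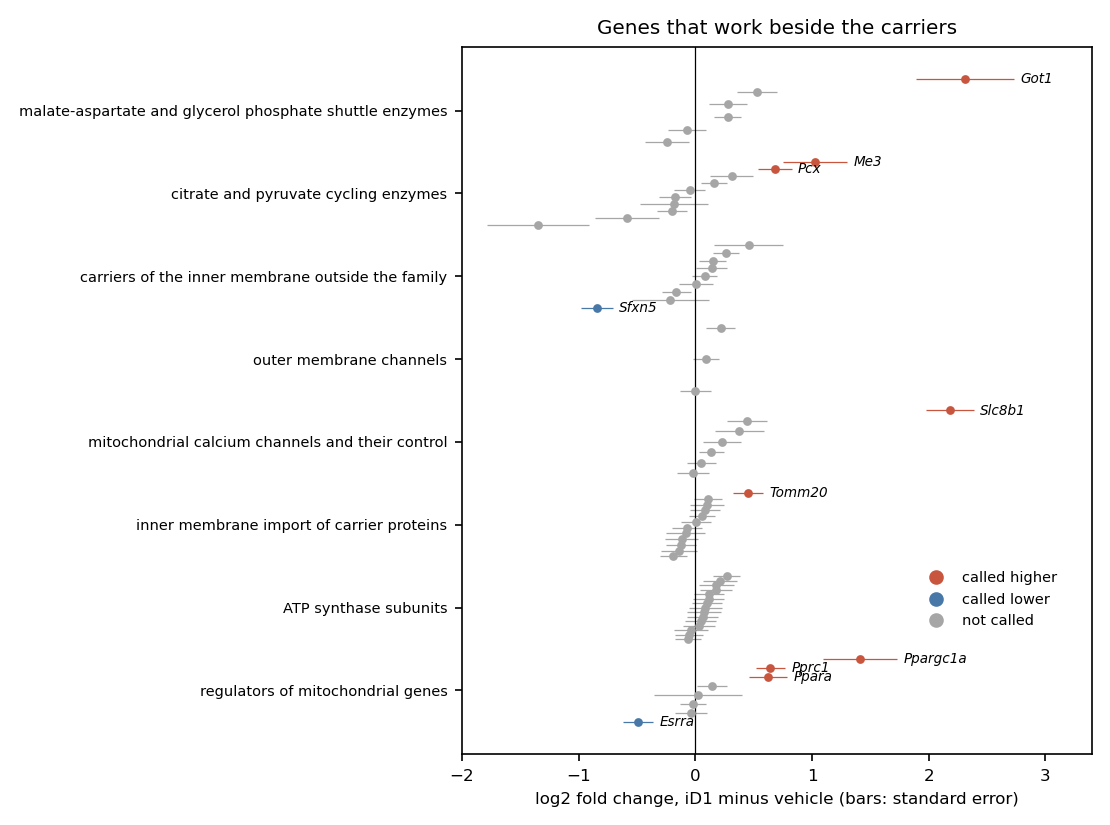
Log2 fold change of iD1 minus vehicle, with its standard error, for the 70 tested genes of 8 lists that work beside the carriers. Got1 at 2.31 and Slc8b1 at 2.18 stand apart to the right and Acly at -1.35 to the left, while the 15 ATP synthase subunits stay between -0.06 and 0.27.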

How the data were processed

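Mouse liver RNA was sequenced in 6 stranded mRNA libraries, per the labels' protocols. A single table of unscaled estimated counts was deposited. No aligner, quantifier, build or annotation is named in the sources used here. Fractional values, 22.6% to 27.7% per library, were rounded to integers. Symbols and positions came from GENCODE M21 on GRCm38, which held 93.4% of the versioned identifiers and 99.2% with or without version.

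Genes were kept by filterByExpr (minimum count 10, minimum total 15). Groups were compared with edgeR 4.0.16 in R 4.3.3 (TMM, robust quasi-likelihood F test, two-sided, 3 against 3). The standard error is the log2 fold change divided by the square root of F. TPM used the APPRIS principal transcript's length. The test was also run on simulated data for iD1 against vehicle over 13718 genes. It called 62 of 100 genes changed 2-fold, 91 of 100 changed 4-fold and 15 of 13518 unchanged genes. Far fewer genes were changed there than the 2293 called in the data, and differences in TMM factors were not simulated. These shares therefore need not hold for the data. No pair of libraries agreed within sampling noise, and none was counted as a duplicate.

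Members and lists were chosen with earlier results of these data known. Values in every library are given for called carriers, for the 5 highest per length, and for carriers without overlap and a log2 fold change of at least 0.5. Other values are given in addition. Of each partner list up to 3 called genes by smallest p are named, or 1 where none was called. Slc25a15 and Slc25a20 are not analysed here, and 1 tested carrier without a call is counted but its values are not reported here.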

Additional observations from a re-analysis of the deposited data

How the results depend on the processing

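The alternatives were upper-quartile factors, library size only, leaving out mitochondrially encoded genes, DESeq2 1.42.0, limma-voom 3.58.1, no filter, a minimum count of 50, non-robust shrinkage, an adjusted p threshold of 0.01, a replicate block, and leaving out each library. The count of carriers higher, 13 in all, was 9 to 13 when 1 library was left out and 8 at a threshold of 0.01. The count lower, 4, stayed at 4 without each library and was 1 with the replicate block. The count of all genes called, 2293, was 825 at a threshold of 0.01, 772 with the replicate block 1211 without the unnumbered vehicle replicate and 1231 to 2574 without another library. Partner genes higher, 8, were 4 with library size only, 2 at 0.01, 3 with the block and 3 to 6 without 1 library. Partner genes lower, 2, were 1 at 0.01 and 1 to 2 without 1 library. Of all 42 tested carriers, 9 changed sign in at least 1 alternative, and of the 70 partner genes 38, and edgeR called 0 of these with all libraries. Among the carriers given in every library these were Slc25a5 (-0.0275 with upper-quartile factors, -0.15 with library size only), Slc25a1 (-0.0442 and -0.17 under these scalings, -0.0713 to 0.238 without 1 library, with -0.0506 without the unnumbered vehicle replicate and -0.03 without iD1 replicate 1) and Ucp1 (-1.32 without iD1 replicate 2, up to 1.80 without another library). The cause was not tested.

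Only replicate numbers 1 and 2 occur in both groups, so the block used 4 libraries. Over all tested genes, deviations from the group means correlated at 0.17 for number 1 and -0.13 for number 2. Other pairs across the groups ran from -0.25 to 0.22. Deviations from means of 3 libraries depend on each other, so these values cannot tell whether equal numbers mark paired libraries. The 4 libraries without the block gave 281 genes higher and 240 lower, with 9 carriers higher and 0 lower (edgeR), and with the block 9 carriers were higher.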
